A study of Rattus norvegicus with 8 samples.

Results

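The 10 genes described here, Tbxt, Eomes, Mixl1, Mesp1, Mesp2, Hand1, Evx1, Gsc, Lhx1 and Foxf1, encode transcription factors of the primitive streak and of the mesoderm that leaves it. They were chosen by symbol, and all 10 were found among the 22228 named genes of a table of rat RNA sequencing values. The 8 libraries form 4 groups of 2 along the route to primordial germ cell-like cells, laboratory counterparts of the founder cells of eggs and sperm. All groups come from the rat strain Crlj:WI with the genotype given as wild type, although both germ cell-like groups were sorted for tdTomato expressed from Nanos3. Embryonic stem cells (ESC) were kept on mouse embryonic fibroblasts with PD0325901 at 1 µM, an inhibitor of MEK, CHIR99021 at 3 µM, an inhibitor of GSK3, and rat LIF at 1000 U/ml. Epiblast-like cells (EpiLC) were aggregates held for 60 h in activin A at 20 ng/ml, bFGF at 12 ng/ml and KSR at 1%. PGCLC_d3 are reporter-positive cells sorted 3 days after these aggregates were moved to BMP4 at 500 ng/ml, rat LIF at 1000 U/ml, SCF at 100 ng/ml and EGF at 50 ng/ml. PGCLC_d3ag3 are reporter-positive cells sorted after 3 more days in aggregates of 5000 PGCLC_d3 cells and 50000 somatic cells from E15.5 female gonads, from which cells positive for c-KIT had been removed. These aggregates were held in medium with KSR at 5%.

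In the embryo the primitive streak forms at the posterior epiblast under WNT, NODAL and BMP signals, and cells that pass through it become mesoderm and endoderm. The germ cell founders arise beside it from the same epiblast under BMP signals. In the mouse, Tbxt (brachyury) acts in the streak and notochord and has also been placed upstream of germ cell factors such as Prdm1 and Prdm14. Eomes is a related T-box factor of the early streak and of the trophoblast. Mixl1, Evx1, Gsc and Lhx1 are homeobox factors of the streak and organizer, Mesp1 and Mesp2 are basic helix-loop-helix factors of early cardiac and somitic mesoderm, and Hand1 and Foxf1 act in extraembryonic and lateral mesoderm.

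Values are in TPM, a relative abundance per gene scaled by gene length and library, recovered from the deposited log2(TPM+1), and differences and their standard errors (SE) are on the log2(TPM+1) scale, which understates changes of low genes. Levels may be set side by side between genes. Markers followed the labels in part. Prdm1 averaged 0.0528 TPM in ESC, 0.204 TPM in EpiLC, 66.5 TPM in PGCLC_d3 and 22.8 TPM in PGCLC_d3ag3, and the later germ cell gene Dazl averaged 785 TPM in PGCLC_d3ag3, against 0.369 TPM in PGCLC_d3. However, all 5 later germ cell genes listed were lower in PGCLC_d3 than in EpiLC, among them Ddx4, which averaged 54.7 TPM in ESC, 148 TPM in EpiLC, 1.29 TPM in PGCLC_d3 and 202 TPM in PGCLC_d3ag3. Otx2 averaged 74.2 TPM in EpiLC, against 0.398 TPM in ESC, but the EpiLC marker Fgf5 averaged 0.0374 TPM in EpiLC and was listed at 0 in ESC. Replicates correlated across 13571 genes at 0.9946 to 0.9975. Relative to ESC replicate 1, the depth estimated from single-read steps was 1.14 to 1.5 in the other ESC, EpiLC and PGCLC_d3 libraries and 2.17 and 2.38 in PGCLC_d3ag3. For PGCLC_d3ag3 only depths above that of EpiLC replicate 2 were searched, so an equal or lower depth could not have been found. No label says that replicates were separate cultures, so p-values measure only the spread between these libraries, which may be technical. In bulk samples fewer cells of a type and less RNA per cell cannot be told apart.

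Of the 10 genes, 7 passed the filter of at least 1 TPM in at least 2 libraries. They fell into 3 patterns. Tbxt, Hand1, Evx1, Mesp1 and Foxf1 had their highest mean level in PGCLC_d3, Eomes had it in EpiLC and Gsc had it in PGCLC_d3ag3. A gene that passed the filter through its high group alone had to differ between groups, so the counts below are set beside the share of all 13571 tested genes that were called at an adjusted p under 0.05. Mesp1 and Foxf1 passed through PGCLC_d3 alone and Gsc through PGCLC_d3ag3 alone. Evx1 reached 1 TPM in PGCLC_d3 and in ESC replicate 2 alone. Calls of these genes for the group that let them pass are no separate support. The other genes, Mesp2, Lhx1 and Mixl1, did not pass, and their highest libraries held 1.13, 0.472 and 0.404 TPM.

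**Figure D1:**
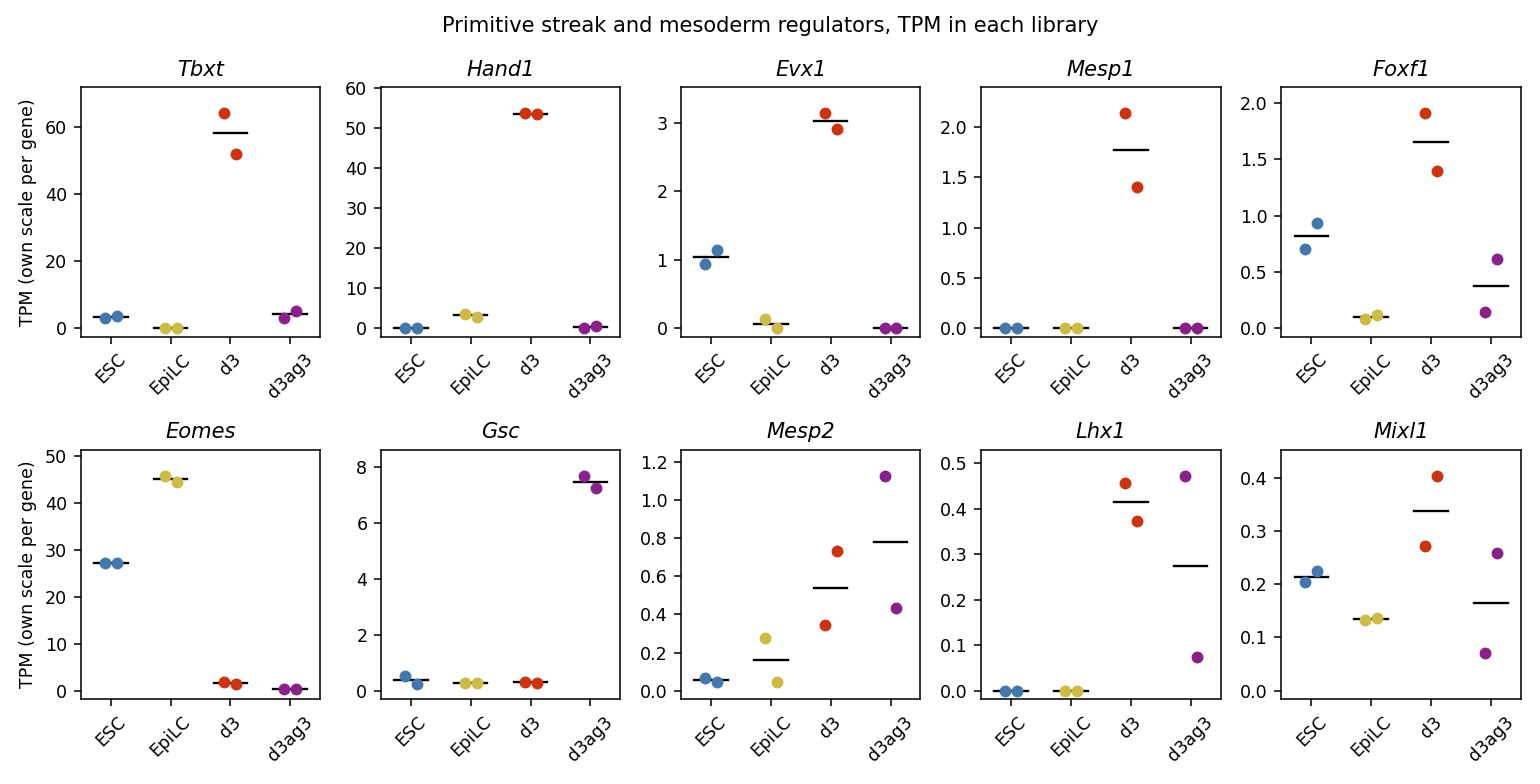
TPM of the 10 genes (vertical axis, linear, its own scale per gene) in each of the 8 libraries (points) of ESC, EpiLC, PGCLC_d3 (d3) and PGCLC_d3ag3 (d3ag3), with the group mean as a bar. Tbxt and Hand1 stand above 50 TPM in both PGCLC_d3 libraries and at no more than 5.21 TPM in every other library, Eomes is high in ESC and EpiLC, and Gsc is above 7 TPM in both PGCLC_d3ag3 libraries alone.

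Tbxt had the highest mean of the 10 genes in PGCLC_d3, with Hand1 close to it. It had 3.09 and 3.60 TPM in the ESC libraries, 0.0468 and 0.164 TPM in EpiLC, 64.0 and 52.0 TPM in PGCLC_d3 and 2.94 and 5.21 TPM in PGCLC_d3ag3. The PGCLC_d3 libraries stood above all others, the EpiLC libraries below all others, and the ESC and PGCLC_d3ag3 libraries overlapped. In PGCLC_d3 the level exceeded that of 82.8% to 85.6% of the named genes. The mean of 58.0 ± 8.53 TPM in PGCLC_d3 was 14.2 times the next highest, 4.07 ± 1.61 TPM in PGCLC_d3ag3 (SD, n = 2 each). The difference was 5.73 (SE 0.21, adjusted p = 8.6e-09) for PGCLC_d3 against EpiLC and 3.76 (SE 0.21, adjusted p = 1.0e-07) for PGCLC_d3 against ESC. PGCLC_d3ag3 against ESC, the neighbours in the order of levels, differed by 0.19 (SE 0.21, adjusted p = 0.421), which is within their spread. That last difference was 0.52 (adjusted p = 0.0243) without PGCLC_d3ag3 replicate 1 and -0.14 (adjusted p = 0.484) without PGCLC_d3ag3 replicate 2.

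Hand1, a factor of extraembryonic and lateral mesoderm that is also active in trophoblast, was close to Tbxt in PGCLC_d3 and far lower elsewhere. Its value was 0 in each ESC library, of which replicate 1 is the shallowest of the 8 by the depth estimate. It had 3.55 and 2.83 TPM in EpiLC, 53.6 and 53.4 TPM in PGCLC_d3 and 0.0512 and 0.517 TPM in PGCLC_d3ag3. No groups overlapped. PGCLC_d3 libraries held 93.9% of the sum of its 4 group means. The difference was 3.71 (SE 0.18, adjusted p = 5.4e-08) for PGCLC_d3 against EpiLC and -5.43 (SE 0.18, adjusted p = 1.7e-08) for PGCLC_d3ag3 against PGCLC_d3. The lowest neighbours in the order, PGCLC_d3ag3 and ESC, were not called apart (adjusted p = 0.109). They were with a pseudocount of 0.1 (adjusted p = 0.0204) and without PGCLC_d3ag3 replicate 1 (adjusted p = 0.00684).

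Evx1, a homeobox factor of the posterior streak, had 0.933 and 1.14 TPM in ESC, 0.134 and 0 TPM in EpiLC and 3.15 and 2.91 TPM in PGCLC_d3, and was listed at 0 in both PGCLC_d3ag3 libraries. PGCLC_d3 was highest and ESC next, without overlap. The fewest whole reads that give these values are 12 and 20 in ESC, 2 and 0 in EpiLC and 53 and 43 in PGCLC_d3. The difference between PGCLC_d3 and ESC was 0.99 (SE 0.12, adjusted p = 3.8e-05) and that between PGCLC_d3 and EpiLC was 1.92 (SE 0.12, adjusted p = 3.7e-07). EpiLC and PGCLC_d3ag3, the lowest neighbours, overlapped and were not called apart (adjusted p = 0.513).

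Mesp1, which marks the earliest cardiac mesoderm of the mouse, was seen in PGCLC_d3 alone, at 2.14 and 1.40 TPM, and was listed at 0 in the other 6 libraries. Its mean of 1.77 ± 0.521 TPM in PGCLC_d3 (SD, n = 2) was called higher than the 0 listed in EpiLC (adjusted p = 5.9e-06), in ESC (adjusted p = 4.9e-06) and in PGCLC_d3ag3 (adjusted p = 9.6e-06). The test borrows its spread from other genes, since 3 of the groups have none of their own here. Mesp1 and its relative Mesp2 lie next to each other in the genome and resemble each other in part, and how reads shared by both were counted is not given in the sources used here.

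Foxf1, a forkhead factor of lateral and extraembryonic mesoderm, had 0.706 and 0.936 TPM in ESC, 0.0762 and 0.118 TPM in EpiLC, 1.91 and 1.39 TPM in PGCLC_d3 and 0.142 and 0.612 TPM in PGCLC_d3ag3. The groups did not overlap, with the order PGCLC_d3, ESC, PGCLC_d3ag3 and EpiLC from high to low. The fewest whole reads behind these values run from 2 to 57. PGCLC_d3 against EpiLC differed by 1.27 (SE 0.18, adjusted p = 9.7e-05). PGCLC_d3 against ESC differed by 0.54 (SE 0.18, adjusted p = 0.0176), which did not hold everywhere. The adjusted p was 0.0574 after rescaling by median of ratios, 0.585 after quantile normalization and 0.11 with a pseudocount of 0.1. It was 0.113 without ESC replicate 1 and 0.117 without PGCLC_d3 replicate 1. PGCLC_d3ag3 against ESC differed by -0.42 (adjusted p = 0.0497), and that call ended under 8 alternatives, at adjusted p = 0.0561 to 0.345. PGCLC_d3ag3 and EpiLC were not called apart (adjusted p = 0.134), but were without PGCLC_d3ag3 replicate 1 (adjusted p = 0.0123).

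Eomes, the other T-box factor, moved opposite to Tbxt in EpiLC against ESC and in PGCLC_d3 against EpiLC, and both fell in PGCLC_d3ag3 against PGCLC_d3. It had 27.1 TPM in each ESC library, 45.8 and 44.4 TPM in EpiLC, 1.90 and 1.48 TPM in PGCLC_d3 and 0.254 and 0.342 TPM in PGCLC_d3ag3. No groups overlapped, and every neighbour in the order was called apart. EpiLC against ESC differed by 0.71 (SE 0.12, adjusted p = 4.9e-04), PGCLC_d3 against EpiLC by -4.10 (SE 0.12, adjusted p = 2.4e-09) and PGCLC_d3ag3 against PGCLC_d3 by -1.05 (SE 0.12, adjusted p = 3.8e-05). Between the T-box genes, Eomes was the higher in ESC and EpiLC and Tbxt the higher in both germ cell-like groups, in every library of each.

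Gsc, the homeobox gene goosecoid of the mouse anterior streak and organizer, stood apart in PGCLC_d3ag3. It had 0.517 and 0.227 TPM in ESC, 0.267 and 0.276 TPM in EpiLC, 0.314 and 0.272 TPM in PGCLC_d3 and 7.68 and 7.22 TPM in PGCLC_d3ag3. The fewest whole reads that give these values are 3 to 5 in each of the first 6 libraries and 161 and 166 in PGCLC_d3ag3. The mean of 7.45 ± 0.323 TPM in PGCLC_d3ag3 (SD, n = 2) was 20.03 times that in ESC, the next highest group. PGCLC_d3ag3 against PGCLC_d3 differed by 2.71 (SE 0.13, adjusted p = 1.8e-07), and ESC, EpiLC and PGCLC_d3 were not called apart from each other (adjusted p = 0.525 to 0.878). The 14 gonadal somatic cell markers summed to 16.1 and 18.3 TPM in PGCLC_d3ag3, against 14.0 and 12.6 TPM in PGCLC_d3. They summed to 20.8 and 23.8 TPM in EpiLC and 7.37 and 8.43 TPM in ESC. Of these markers, 12 and 13 were above 0 in the PGCLC_d3ag3 libraries and 12 in each PGCLC_d3 library. Of the 8 tested, 4 rose (Wt1, Gata4, Nr5a1 and Amh), 1 fell (Star) and 3 were not called. Beside this, 70.4% of all tested genes were called in PGCLC_d3ag3 against PGCLC_d3, 25.7% higher and 44.8% lower. Wt1 and Amh passed the filter through PGCLC_d3ag3 alone, so the filter largely set their calls. Wt1 averaged 1.22 TPM in PGCLC_d3ag3, against 0.0505 TPM in PGCLC_d3, and Star averaged 0.646 TPM in PGCLC_d3ag3, against 3.14 TPM in PGCLC_d3. Foxl2, which did not pass the filter, averaged 0.375 TPM in PGCLC_d3ag3, against 0.0344 TPM in PGCLC_d3. The 8 endothelial and blood markers summed to 142 and 151 TPM in PGCLC_d3ag3, against 20.9 and 20.1 TPM in PGCLC_d3. They summed to 109 and 110 TPM in ESC and 52.7 and 49.3 TPM in EpiLC. Most of each sum was Pecam1, which averaged 137 TPM in PGCLC_d3ag3, 17.8 TPM in PGCLC_d3, 104 TPM in ESC and 49.3 TPM in EpiLC. From PGCLC_d3 to PGCLC_d3ag3, 3 of 4 tested rose, Pecam1 among them, and 1 fell, beside the same 70.4% of all tested genes. Among the 8 markers the globin gene Hbb had 4.81 and 11.3 TPM in PGCLC_d3ag3 and was listed at 0 in the other 6 libraries. Hbb passed the filter through PGCLC_d3ag3 alone and Cdh5, which fell, through PGCLC_d3 alone, so the filter largely set both calls. The 10 fibroblast markers summed to 12.3 and 15.6 TPM in PGCLC_d3ag3, against 4.51 and 7.85 TPM in PGCLC_d3. Of 9 tested, 3 were called higher and 3 lower, beside 25.7% and 44.8% of all tested genes. These markers summed to more in EpiLC (45.5 and 85.0 TPM) and in ESC (31.9 and 26.1 TPM). Postn, a matrix gene among them, averaged 7.58 TPM in PGCLC_d3ag3, against 0.221 TPM in PGCLC_d3. It held 6.70 and 8.45 TPM of the PGCLC_d3ag3 sums and passed the filter through that group alone, so the filter largely set its call. Among the 3 called lower, Col1a2 averaged 0.563 TPM in PGCLC_d3ag3, against 2.69 TPM in PGCLC_d3. The part of any of these cells in the Gsc level was not tested.

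Mixl1, Mesp2 and Lhx1 stayed low, at or under 1.13 TPM in every library. Mixl1, a homeobox factor of the mouse streak, had 0.204 and 0.224 TPM in ESC, 0.132 and 0.137 TPM in EpiLC, 0.272 and 0.404 TPM in PGCLC_d3 and 0.071 and 0.258 TPM in PGCLC_d3ag3. The fewest whole reads behind each are 3 to 12, and the PGCLC_d3ag3 libraries span those of ESC and EpiLC. Mesp2 had 0.0644 and 0.0468 TPM in ESC, 0.277 and 0.0432 TPM in EpiLC, 0.343 and 0.735 TPM in PGCLC_d3 and 1.13 and 0.434 TPM in PGCLC_d3ag3, where the last groups overlap. The fewest whole reads for Mesp2 are 1 and 1 in ESC, 5 and 1 in EpiLC, 7 and 13 in PGCLC_d3 and 38 and 16 in PGCLC_d3ag3. Lhx1, a LIM homeobox factor of the organizer, was listed at 0 in all ESC and EpiLC libraries and had 0.456 and 0.372 TPM in PGCLC_d3 and 0.472 and 0.074 TPM in PGCLC_d3ag3. The fewest whole reads for Lhx1 are 17 and 12 in PGCLC_d3 and 29 and 5 in PGCLC_d3ag3. In a fit of all 19132 genes above 0 in any library, PGCLC_d3 was called higher than EpiLC for Lhx1 (adjusted p = 0.0136; 58.6% of all genes were called), higher than ESC for Lhx1 (adjusted p = 0.0131) and higher than EpiLC for Mixl1 (0.24, SE 0.08, adjusted p = 0.0471). PGCLC_d3ag3 was called higher than ESC for Mesp2 (0.73, SE 0.21, adjusted p = 0.0183; 60.2% of all genes were called) and than EpiLC for Mesp2 (0.60, SE 0.21, adjusted p = 0.0388). The other comparisons of these 3 genes were not called. In that fit 54.6% of all genes were called in PGCLC_d3ag3 against PGCLC_d3, 60.5% in PGCLC_d3 against ESC, 51.7% in EpiLC against ESC and 61.6% in PGCLC_d3ag3 against EpiLC. PGCLC_d3ag3 against PGCLC_d3 was called for neither Lhx1 nor Mixl1 (adjusted p = 0.325 for Lhx1 and 0.0815 for Mixl1).

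**Figure D2:**
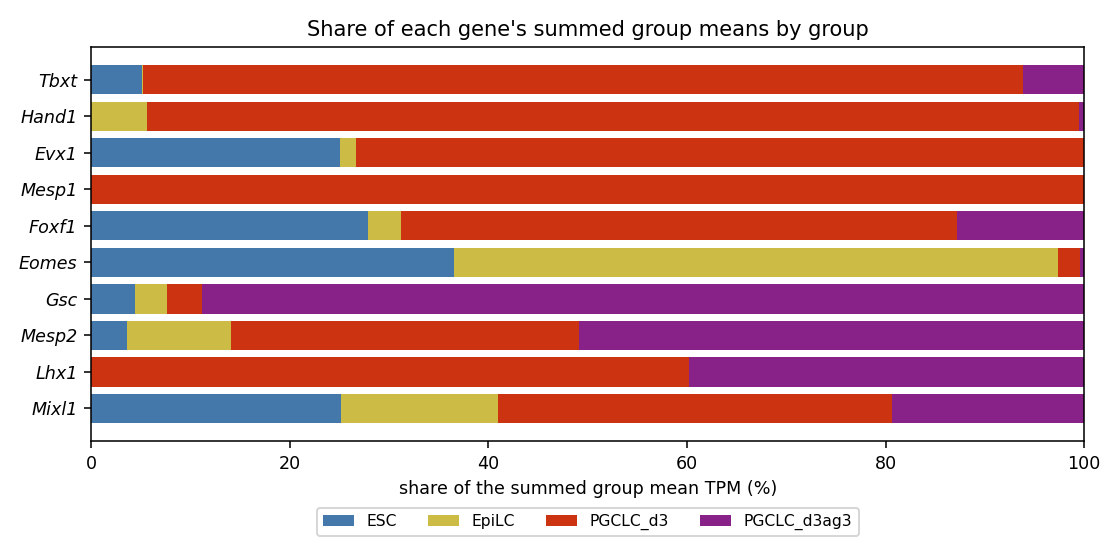
Share of each gene's summed group mean TPM (horizontal axis, percent) held by ESC, EpiLC, PGCLC_d3 and PGCLC_d3ag3 (colours). PGCLC_d3 holds 88.5% for Tbxt, 93.9% for Hand1 and 100% for Mesp1, ESC and EpiLC together hold most of Eomes, and PGCLC_d3ag3 holds 88.8% for Gsc; the bars of Mesp2, Lhx1 and Mixl1 rest on few reads.

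The promoters of the genes that turn these patterns are shown as sequence, because 5 of the 7 tested genes peaked together in PGCLC_d3 while Eomes and Gsc did not. Mixl1 and Lhx1, which did not pass the filter, also had their highest means there, but at only 0.338 and 0.414 TPM. The table of promoters from RefSeq, of the build GRCr8, holds 9 of the 10 genes, all but Foxf1. The 250 bases before each start were searched on both strands for 5 motifs. The TATA box was read as TATAAA. The core bound by T-box factors was read as AGGTGTG. The core bound by TCF/LEF factors, which act for WNT signals, was read as CTTTGA. The GC-rich SMAD site, which serves BMP and NODAL signals, was read as GGCGCC. The site for GATA factors was read as GATAAG. Matches are in capitals, and each sequence runs 5′ to 3′ on the strand of its gene. Tbxt lies on the minus strand with its window at chr1:54853584-54853833, Hand1 on the minus strand at chr10:42509685-42509934, Mixl1 on the minus strand at chr13:94957939-94958188, Eomes on the plus strand at chr8:127058965-127059214 and Gsc on the minus strand at chr6:129154876-129155125.
Tbxt: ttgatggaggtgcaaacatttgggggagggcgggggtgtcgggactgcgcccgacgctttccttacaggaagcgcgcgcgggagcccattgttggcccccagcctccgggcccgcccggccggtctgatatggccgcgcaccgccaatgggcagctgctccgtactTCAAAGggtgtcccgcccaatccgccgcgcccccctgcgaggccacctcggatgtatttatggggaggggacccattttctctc
Hand1: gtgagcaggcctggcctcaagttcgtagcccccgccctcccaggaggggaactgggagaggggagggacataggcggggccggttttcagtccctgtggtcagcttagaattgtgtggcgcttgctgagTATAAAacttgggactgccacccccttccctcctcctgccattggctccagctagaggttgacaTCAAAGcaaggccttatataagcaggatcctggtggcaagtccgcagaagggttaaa
Mixl1: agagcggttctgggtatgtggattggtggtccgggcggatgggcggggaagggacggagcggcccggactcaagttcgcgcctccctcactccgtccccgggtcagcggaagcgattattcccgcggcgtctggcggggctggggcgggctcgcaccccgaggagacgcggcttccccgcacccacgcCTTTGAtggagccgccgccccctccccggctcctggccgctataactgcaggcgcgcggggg
Eomes: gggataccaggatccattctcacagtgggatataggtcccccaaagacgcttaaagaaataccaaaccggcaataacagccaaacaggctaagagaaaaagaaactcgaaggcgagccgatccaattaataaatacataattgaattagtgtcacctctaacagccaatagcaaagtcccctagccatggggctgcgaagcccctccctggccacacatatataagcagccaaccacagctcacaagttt
Gsc: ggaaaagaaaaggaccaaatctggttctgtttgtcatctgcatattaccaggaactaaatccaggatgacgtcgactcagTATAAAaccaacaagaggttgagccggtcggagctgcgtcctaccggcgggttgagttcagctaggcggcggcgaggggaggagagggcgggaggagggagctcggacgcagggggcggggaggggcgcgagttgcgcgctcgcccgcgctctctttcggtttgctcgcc
The capitals mark the reverse complement of the TCF/LEF core at bases 84 to 79 before the start of Tbxt and 57 to 52 before that of Hand1, and the core itself 62 to 57 before that of Mixl1. The window of Hand1 also holds the letters TATAAA at bases 121 to 116 and that of Gsc at bases 170 to 165. The window of Eomes holds none of the 5 motifs as spelled here. The windows of Eomes and Hand1 also hold TATATAAG closer to the start, which the spelling TATAAA misses and which is not marked. Whether any of these runs works as a TATA box was not tested. The TCF/LEF core was in 3 of 9 windows of these genes and in 13.9% of 33469 promoters, the TATA box in 2 and in 12.9%, the SMAD site in 1 (Evx1) and in 8.7%, the T-box core in 1 (Mesp2) and in 4.8%, and the GATA site in 0 and in 6.2%. The motifs shown do not overlap each other. Mixl1 carries the core and stayed at or under 0.404 TPM, Tbxt and Hand1 carry it and passed 50 TPM in PGCLC_d3, and Evx1 and Mesp1, which peaked there too, lack it in this window. A match is a run of letters and not a shown binding site.

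From ESC to EpiLC the question is what cells express when they leave the naive state for one like the epiblast before the streak. Of the 7 tested genes, 2 rose and 3 fell in EpiLC, where 67.3% of all tested genes were called, 35.4% higher and 31.8% lower. Eomes and Hand1 rose, and Tbxt (difference -1.97, SE 0.21, adjusted p = 1.7e-05), Evx1 (-0.93, SE 0.12, adjusted p = 8.4e-05) and Foxf1 (-0.73, SE 0.18, adjusted p = 0.00435) fell. The median difference was -0.10 over the 7 genes and 0.04 over all tested genes. Per the labels, neither group was sorted for the reporter.

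From EpiLC to PGCLC_d3 the comparison asks which streak genes accompany the move to the germ cell fate in medium with BMP4, LIF, SCF and EGF. Of the 7 genes, 5 rose in PGCLC_d3 (Tbxt, Hand1, Evx1, Mesp1 and Foxf1), Eomes fell and Gsc did not pass (difference 0.02, SE 0.13, adjusted p = 0.878). Of all tested genes 74.9% were called, 47.3% higher and 27.6% lower. The rises of Mesp1 and Foxf1, which passed the filter through PGCLC_d3 alone, were largely set by that filter. The median difference was 1.46 over the 7 genes, the value of Mesp1, which is set against libraries listed at 0, and 0.21 over all tested genes. Median-of-ratios rescaling moved the median over all tested genes to 0.004 and the share of calls that were higher over all genes to 50.3%, against 63.2% as deposited, and left the 5 rises and 1 fall in place. PGCLC_d3 cells were sorted for the reporter and EpiLC were not, so selection of cells and change within cells cannot be told apart. The medium also changed from activin A and bFGF to BMP4, LIF, SCF and EGF, with 3 more days of culture. The parts of these changes cannot be told apart either.

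From PGCLC_d3 to PGCLC_d3ag3, after the aggregation with gonadal cells, all 7 tested genes were called. Gsc rose and the other 6 fell, among 70.4% of all tested genes called, 25.7% higher and 44.8% lower. The filter largely set the calls of Gsc, which passed through PGCLC_d3ag3 alone, and of Mesp1 and Foxf1, which passed through PGCLC_d3 alone. The differences of the falls ran from -5.43 for Hand1 to -0.96 for Foxf1 (SE 0.18, adjusted p = 7.8e-04), and that of Tbxt was -3.57 (SE 0.21, adjusted p = 4.5e-07). Evx1, at 2.91 TPM or more in PGCLC_d3, was listed at 0 in PGCLC_d3ag3 (adjusted p = 5.9e-07). The median difference was -1.46 over the 7 genes, again the value of Mesp1, and -0.18 over all tested genes. The median was -0.04 over all tested genes after median-of-ratios rescaling, and the share of calls that were higher over all genes was then 47.5%, against 36.4% as deposited, with the 7 calls unchanged in number. Both groups were sorted for the reporter, and the aggregates also differed in medium and in 3 days of culture, which cannot be told apart from the gonadal cells.

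**Figure D3:**
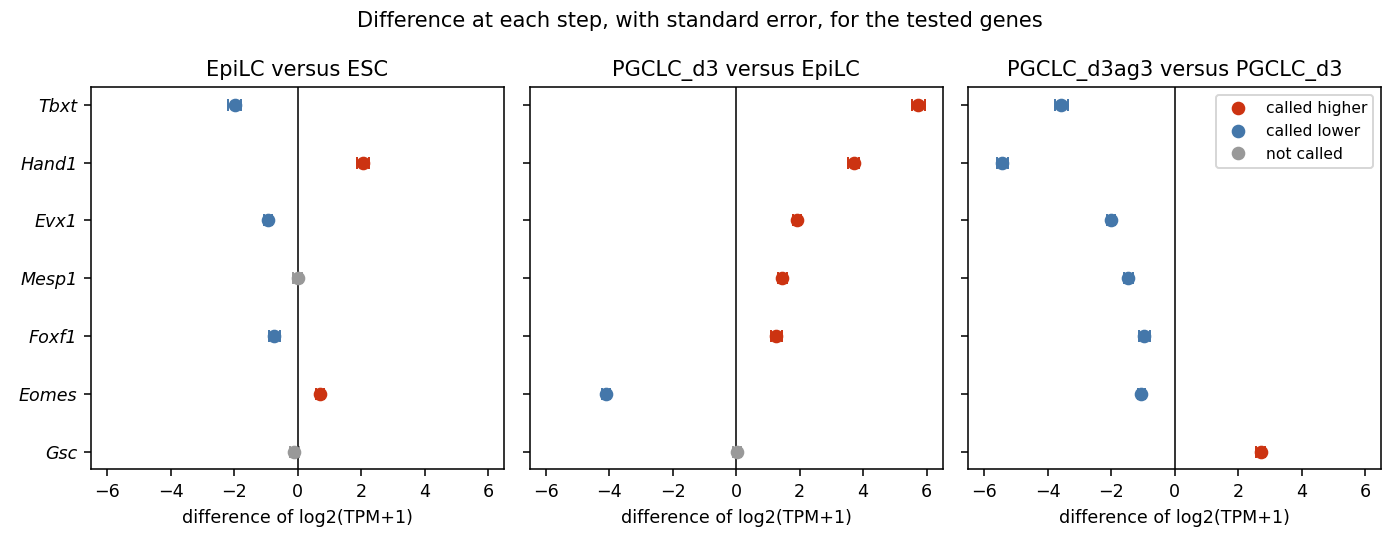
Difference of log2(TPM+1) at each of the 3 steps (horizontal axis) for the 7 tested genes, with the standard error as a bar and the call as colour. Tbxt, Hand1, Evx1, Mesp1 and Foxf1 are higher in PGCLC_d3 than in EpiLC and lower in PGCLC_d3ag3 than in PGCLC_d3, Eomes is lower at both of these steps and Gsc is higher at the last; Mesp1 was listed at 0 in ESC, EpiLC and PGCLC_d3ag3.

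The remaining pairs of groups skip a step of the route. In PGCLC_d3 against ESC, 5 of 7 were higher and 1 lower, among 77.0% of all genes called (49.6% higher and 27.4% lower), and the call of Foxf1 ended under the alternatives given above. In PGCLC_d3ag3 against ESC, Gsc was higher (2.63, SE 0.13, adjusted p = 5.9e-08), Eomes, Evx1 and Foxf1 were lower and the other 3 were not called, where 77.3% of all genes were called, 42.5% higher and 34.8% lower. In PGCLC_d3ag3 against EpiLC, Tbxt (2.16, SE 0.21, adjusted p = 5.9e-06) and Gsc were higher, Eomes and Hand1 were lower and 3 were not called, where 77.7% of all genes were called, 41.0% higher and 36.7% lower. These comparisons share libraries with the 3 steps and are not separate support for them.

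The signals that pattern the streak were described from a list of 16 ligands, cofactors and antagonists, of which 13 were tested. In EpiLC against ESC 4 rose and 7 fell, in PGCLC_d3 against EpiLC 8 rose and 5 fell, and in PGCLC_d3ag3 against PGCLC_d3 2 rose and 8 fell (7 under median-of-ratios rescaling). Beside these counts, 67.3%, 74.9% and 70.4% of all tested genes were called at the 3 steps in that order. Fgf8, which drives cells out of the mouse streak, averaged 105 ± 18.4 TPM in PGCLC_d3, against 6.41 ± 1.92 TPM in EpiLC (SD, n = 2 each). It averaged 3.34 ± 0.832 TPM in PGCLC_d3ag3. Wnt3, the WNT ligand that starts the streak in the mouse, averaged 10.5 ± 0.803 TPM in PGCLC_d3, against 0.0905 ± 0.0566 TPM in EpiLC. It fell again to 1.09 ± 0.189 TPM in PGCLC_d3ag3. Lefty2, an inhibitor of NODAL made by streak and mesoderm cells, was at 102 ± 21.2 TPM in PGCLC_d3 and 30.2 TPM in EpiLC, and it fell to 0.157 ± 0.0544 TPM in PGCLC_d3ag3. Fgf4, an FGF ligand of the naive and early epiblast, fell to 0.18 ± 0.0861 TPM in PGCLC_d3, against 78.1 ± 10.4 TPM in EpiLC. This was the list's largest difference on the log2(TPM+1) scale at that step (-6.06). The NODAL cofactor Tdgf1 fell to 35.8 ± 2.94 TPM in PGCLC_d3, against 627 ± 36.9 TPM in EpiLC. In EpiLC against ESC the largest difference on the log2(TPM+1) scale (-3.75) was that of Gdf3, a ligand related to NODAL, at 44.9 ± 4.05 TPM in EpiLC and 615 ± 37.1 TPM in ESC. The list medians at the 3 steps were -0.26, 0.63 and -0.49, beside 0.04, 0.21 and -0.18 over all tested genes.

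Among other factors of the streak, the posterior body and the node, 14 were listed and 10 were tested. In EpiLC against ESC 2 rose and 8 fell, in PGCLC_d3 against EpiLC 7 rose and 2 fell, and in PGCLC_d3ag3 against PGCLC_d3 0 rose and 8 fell (7 under either rescaling). All tested genes were called at 67.3%, 74.9% and 70.4% at these steps. The list medians were -0.92, 1.56 and -1.50, beside 0.04, 0.21 and -0.18 over all tested genes. Cdx2, a caudal homeobox factor of the posterior body and trophoblast, had group means of 125 TPM in ESC, 0.143 TPM in EpiLC, 23.3 TPM in PGCLC_d3 and 1.34 TPM in PGCLC_d3ag3. Sp5, a WNT target gene, had 10.7 TPM in ESC, 0.0674 TPM in EpiLC, 13.1 TPM in PGCLC_d3 and 1.81 TPM in PGCLC_d3ag3. Like Tbxt, both were lower in EpiLC than in the groups on either side of it. Msgn1 and Evx2 were listed at 0 in every library, and Tbx6, a factor of paraxial mesoderm, did not exceed a group mean of 0.835 TPM. These last genes were picked for mention after their values were seen.

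The list of later mesoderm genes was mostly at low levels. Of its 24 genes other than those above, 15 did not pass the filter, and the highest group mean among them was 1.35 TPM, for Etv2 in EpiLC. Among the 9 tested, 7 rose and 0 fell in PGCLC_d3 against EpiLC, and 2 rose and 5 fell in PGCLC_d3ag3 against PGCLC_d3, where 74.9% and 70.4% of all tested genes were called. Msx1 and Msx2, homeobox targets of BMP signals, averaged 175 ± 2.84 and 142 ± 13.4 TPM in PGCLC_d3, against 0.523 ± 0.16 and 0.498 ± 0.0404 TPM in EpiLC. Bmp7 averaged 123 ± 0.545 TPM in PGCLC_d3, against 0.834 ± 0.0611 TPM in EpiLC. Lmo2, a cofactor of blood and endothelial factors, averaged 36.1 ± 2.49 TPM in PGCLC_d3, against 1.41 ± 0.0248 TPM in EpiLC. Its partner Tal1 did not pass the filter, and the receptor gene Kdr of early vascular mesoderm averaged 0.907 TPM in PGCLC_d3. Tal1 and Kdr were picked for mention after their values were seen. The list medians at the PGCLC_d3 and PGCLC_d3ag3 steps were 1.73 and -1.03.

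Genes of the epithelial to mesenchymal transition, by which streak cells leave the epiblast, were mixed. Of 8 tested among 10, 4 rose and 3 fell in PGCLC_d3 against EpiLC, and 3 rose and 4 fell under quantile normalization. The 7 calls of 8 stand beside 74.9% of all tested genes called, 47.3% higher and 27.6% lower. The cadherin Cdh1 of epithelia fell to 104 ± 2.77 TPM in PGCLC_d3, against 553 ± 44.7 TPM in EpiLC, and Cdh2 of mesenchyme rose to 12.2 and 13.7 TPM, against 0.933 and 0.840 TPM. The repressor gene Snai2 averaged 7.22 ± 0.455 TPM in PGCLC_d3, against 0.623 ± 0.52 TPM in EpiLC. In PGCLC_d3ag3 against PGCLC_d3 2 rose and 4 fell (2 and 2 under quantile normalization), where 70.4% of all tested genes were called.

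Endoderm genes, the other product of the streak, rose in 8 of 10 tested and fell in 1 in PGCLC_d3 against EpiLC, where 74.9% of all tested genes were called and 47.3% were higher. Foxa1 and Foxa3 among them passed the filter through PGCLC_d3 alone, so the filter largely set their calls. Sox17, an endoderm factor that is also expressed in germ cell founders, averaged 51.3 ± 8.82 TPM in PGCLC_d3, against 0.658 ± 0.026 TPM in EpiLC, and fell to 10.1 ± 0.932 TPM in PGCLC_d3ag3. Cxcr4, a chemokine receptor gene of definitive endoderm and of migrating germ cells, averaged 48.5 ± 2.35 TPM in PGCLC_d3, against 0.0704 ± 0.0995 TPM in EpiLC. Foxa2, which defines endoderm and node in the mouse, averaged 2.17 TPM in PGCLC_d3 and was listed at 0 in PGCLC_d3ag3. Of 12 trophoblast and amnion genes other than Hand1 and Eomes, 11 were tested, and 10 rose and 1 fell in PGCLC_d3 against EpiLC (9 and 1 under either rescaling), against the same background of 74.9%. Those that rose include the keratin gene Krt19, at 23.1 ± 2.84 TPM in PGCLC_d3 and 1.05 ± 0.418 TPM in EpiLC, and Dlx3, at 25.8 ± 0.21 TPM in PGCLC_d3 and 0.456 ± 0.0392 TPM in EpiLC. Krt19 averaged 316 TPM in ESC and was called lower in PGCLC_d3 than there (difference -3.72). Gata2 and Gata3 of this list passed the filter through PGCLC_d3 alone. With Hand1 and Eomes, this list summed to 545 and 510 TPM in PGCLC_d3, against 221 and 210 TPM in EpiLC and 547 and 532 TPM in ESC. Keratin genes made up most of these sums, Krt18 in PGCLC_d3 (370 TPM) and EpiLC (159 TPM) and Krt19 in ESC. Krt18 was picked for mention after its values were seen. Elf5, which defines trophoblast, did not exceed a group mean of 0.0544 TPM. Whether cells of these kinds were present among the sorted cells, and their part in the levels of Hand1 and Tbxt, was not tested.

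**Figure D4:**
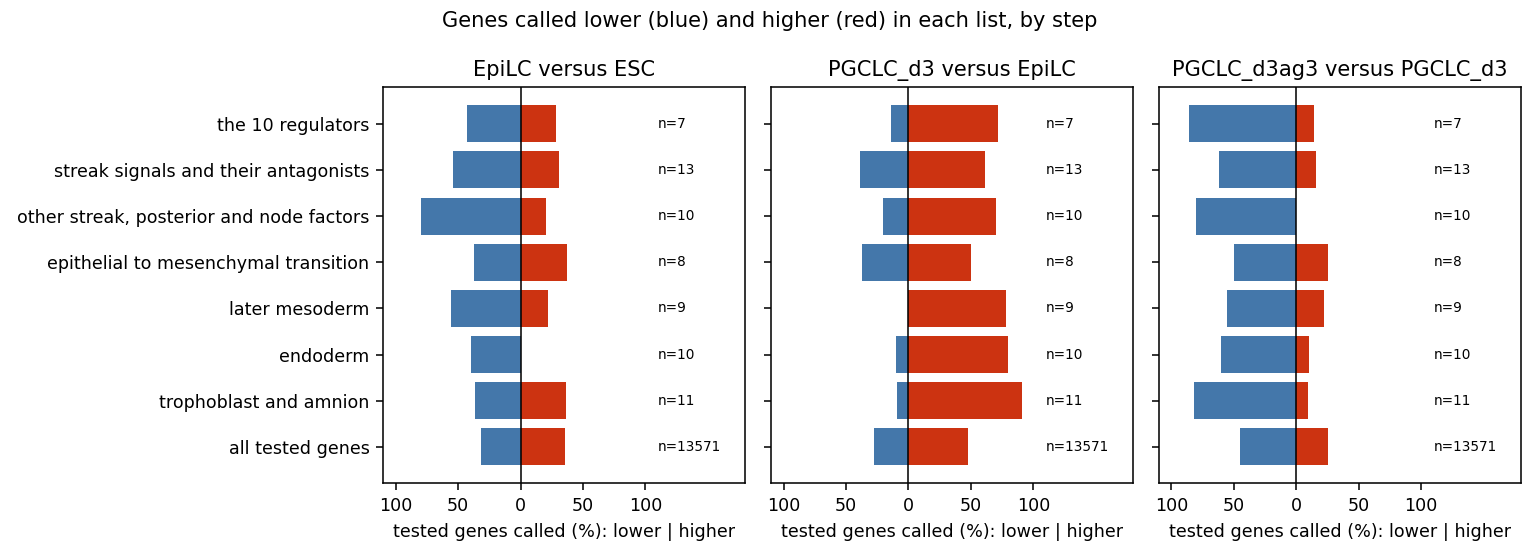
Share of tested genes called higher (red, to the right) and lower (blue, to the left) at each of the 3 steps, for the 10 regulators, 6 other lists and all tested genes, with the number tested. In PGCLC_d3 against EpiLC, 8 of 10 endoderm and 7 of 9 later mesoderm genes are called higher, beside 47.3% of all tested genes. Gata4 and Gata6 are on both of these lists and are counted in each. Genes that passed the filter through PGCLC_d3 alone, such as Foxa1 and Foxa3, had to differ there. The 15 later mesoderm genes that did not pass are left out.

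The genes most like each regulator were sought among 10337 tested genes with at least 5 TPM in their highest library, by the root mean square difference of log2(TPM+1) over the 8 libraries after each gene was centred on its own mean. The 8 libraries hold only 4 groups, so likeness rests on the group profile. For Tbxt the nearest were RT1-CE16, an antigen presentation gene of a family whose copies may share reads (0.37), Sox13 (0.38) and Dtx3l (0.53). Sox13 had group means of 13.9 TPM in ESC, 1.77 TPM in EpiLC, 104 TPM in PGCLC_d3 and 13.1 TPM in PGCLC_d3ag3. For Hand1 they were the protease gene Tmprss2 (0.42), Pkdcc (0.50) and the matrix gene Tnc (0.55). Tmprss2 averaged 52.4 TPM in PGCLC_d3 and at most 1.35 TPM in the other groups. For Eomes they were Mmp25 (0.17), the amino acid transporter gene Slc7a3 (0.41) and Med13l (0.46). For Gsc they were Them5 (0.15), Igsf21 (0.19) and Zg16b (0.20), all at 6.57 to 7.53 TPM in PGCLC_d3ag3 and under 1 TPM elsewhere. Evx1 was nearest to Mtus1 (0.08), Mesp1 to Pla2g4b (0.10) and Foxf1 to Cbx7 (0.14), which change by similar amounts on the log2(TPM+1) scale at higher levels. That scale understates changes of low genes, and genes under 5 TPM in every library were not searched. From EpiLC to PGCLC_d3 the mean of Mesp1 went from 0 to 1.77 TPM and that of Pla2g4b from 1.82 to 6.83 TPM. Among the regulators themselves the nearest were Mesp1 and Foxf1 (0.37), Evx1 and Foxf1 (0.41) and Mesp1 and Evx1 (0.42), and the farthest were Tbxt and Eomes (3.85).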

How the data were processed

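The PicoPure kit gave the RNA, and SMART-Seq v4 chemistry followed by KAPA Hyper Prep the libraries, per the labels' protocols. The submitters' processing notes name bcl2fastq 2.20, cutadapt 1.1.6, HISAT2 2.1.0, featureCounts, Subread 1.6.5 and the build rn7, with no order. Values per gene were deposited by the authors as log2(TPM+1), and 11066 blank rows were left out. Groups come from the sample titles.

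Genes with at least 1 TPM in at least 2 of 8 libraries (13571) were fitted together with limma 3.58.1 in R 4.3.3 (lmFit, eBayes with trend, 2-sided, 4 residual degrees of freedom), with Benjamini-Hochberg adjustment per comparison over all tested genes. The fit was tested on simulated data. Alternatives covered scaling, pseudocount, filter, spread, samples fitted, replicate block and each library left out. TPM holds no read totals. Relative depth came from the most frequent ratio of low values between libraries (largest error 0.09% on simulated data). For PGCLC_d3ag3 the ratio was sought only where these libraries are deeper than EpiLC replicate 2. Their simulated depths lay inside that range, so the small error does not test the range itself. The fewest reads, which use these depths, came from the largest step that makes 3 or more low values of a gene whole within 0.06. True reads may be a multiple of these. Such counts cover counting error only, and no interval is given.

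The regulators, lists and motifs were chosen with earlier results of these data known. The lists share some genes, which are counted in each, such as Gata4 and Gata6 (later mesoderm and endoderm), Foxa2 (node and endoderm) and Cdx2 (posterior and trophoblast). All 10 regulators are named, as are up to 4 genes per list and step with the largest called change and 3 nearest genes per regulator.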

Additional observations from a re-analysis of the deposited data

How the results depend on the processing

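The number of regulators called was within 1.5 times the number reported in all 6 comparisons under every alternative except the filter of at least 5 TPM in at least 2 libraries, which left 4 regulators to test (Tbxt, Eomes, Hand1 and Gsc). Under it 3 were called in EpiLC against ESC, 3 in PGCLC_d3 against EpiLC, 4 in PGCLC_d3ag3 against PGCLC_d3, 3 in PGCLC_d3 against ESC and 2 in PGCLC_d3ag3 against ESC, where 5, 6, 7, 6 and 4 of 7 were called before. With 1 library left out, 5 to 5, 6 to 6, 7 to 7, 5 to 6 and 3 to 5 were called in these comparisons, and 4 to 5 in PGCLC_d3ag3 against EpiLC. Values that turned sign were not called before or after. With 1 library left out, Gsc ran from -0.255 to 0.051 in EpiLC against ESC and from -0.231 to 0.075 in PGCLC_d3 against ESC, positive without ESC replicate 1. Gsc was at -0.029 in PGCLC_d3 against EpiLC under median-of-ratios rescaling. Tbxt in PGCLC_d3ag3 against ESC ran from -0.139 without PGCLC_d3ag3 replicate 2 to 0.518 without replicate 1, where it was called. The cause was not tested. Over the 7 genes, 465 values under an alternative kept direction and call, 13 lost the call, all of Foxf1, and 4 gained one. With the replicate block, 5, 6, 7, 6, 3 and 4 regulators were called in the 6 comparisons, the 1 lost being Foxf1 in PGCLC_d3ag3 against ESC (adjusted p = 0.0562). The labels do not say that a replicate number marks a shared batch, and deviations of libraries with the same number correlated at -0.037 to 0.066 across genes. Depth limits Mixl1, Mesp2 and Lhx1, with the fewest reads at 1 to 38 where above 0, and the low groups of Gsc (3 to 5), Evx1 and Foxf1. No read step was resolved for Tbxt, Eomes, Mesp1 and Hand1.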
